A study of Mus musculus with 2 samples.

Results

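Interleukin receptors are the cell-surface proteins through which lymphocytes and myeloid cells sense interleukins. The 10 genes described here were chosen by symbol, with no use of their values, out of 32285 genes counted: Il2ra, Il2rb, Il2rg, Il4ra, Il7r, Il21r, Il6ra, Il6st, Il10ra and Il18r1. The series holds single-cell RNA libraries of spleen from 2 groups of mice, wild-type controls and mice with the M694I knock-in of Mefv, the gene for pyrin, a sensor that assembles an inflammasome. Each group is 1 library, and the titles name 1 mouse each. The mice were age-matched and kept pathogen-free; the labels name no age, no strain and no promoter or Cre, and do not say whether 1 or both alleles carried the change. No treatment is named in either group.

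Most of these receptors are built from shared parts. Il2rg encodes the common gamma chain, which pairs with the products of Il2rb, Il4ra, Il7r or Il21r to make receptors for IL-2, IL-15, IL-4, IL-7 and IL-21, while Il2ra adds high affinity for IL-2. Il6ra binds IL-6 and signals through the gp130 protein of Il6st, Il10ra is the ligand-binding chain for IL-10, and Il18r1 is the IL-18-binding chain of a receptor that signals through MyD88 rather than through JAK kinases and STATs. In spleen, IL-7 receptor is known as a survival receptor of T cells, IL-2 receptor beta as a feature of NK and memory CD8 T cells, and IL-4 and IL-21 receptors as routes of T cell help to B cells.

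After filters on cells, 9478 wild-type cells with 29993419 UMIs (unique molecular identifiers, counts of captured RNA molecules) and 8374 knock-in cells with 23729015 UMIs were kept. The median cell held 2522 UMIs in the wild-type library and 2017 in the knock-in library, and 27 barcode sequences occurred in both. Cells were put into classes by marker genes that include none of the 10 receptors, and a class is called "like" a cell type because it rests on those markers alone. B-like cells numbered 6332 and 5420 in wild type and knock-in, T-like cells 1845 and 1728, NK-like cells 291 and 146, monocyte-like cells 156 and 143, and dendritic-like cells 70 and 62. All 8 B markers were detected in B-like cells, all 8 T markers in T-like cells and all 8 NK markers in NK-like cells of both libraries. The gate rests on these same markers, so their detection is no check of the classes. All 8 T markers were also detected in B-like cells, and all 8 B markers in T-like cells, of both libraries. Both libraries held RNA of 4 Y-linked genes, at 263 and 250.2 UMIs per 1000000 UMIs, and 4 and 2 UMIs of Xist in all. Mefv itself was found in 144 and 75 UMIs, of which 63 and 37 in monocyte-like cells, and a count per gene does not show the single-codon change. With 1 library a group there is no replicate spread: every interval below is at 95% and covers counting error only, each ratio compares 2 libraries, and a difference between mice cannot be told apart from a difference between genotypes.

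In mm10 (GRCm38), Il4ra (ENSMUSG00000030748, chr7:125552120-125579474, plus strand) and Il21r (ENSMUSG00000030745, chr7:125603429-125633570, plus strand) are neighbours, 23954 bases apart. They are also the 2 receptors that were lower in the knock-in library in both B-like and T-like cells, so the 250 bases before their RefSeq start sites (GRCm38.p6) are shown. Il4ra spans chr7:125552021-125552270 and Il21r spans chr7:125603179-125603428, both on the plus strand and read 5′ to 3′; GENCODE starts its Il4ra gene model inside the first window. Capitals mark GGGCGG, the SP1-type GC box, ATGCAAAT, the octamer, which was added to the search after the Il4ra sequence had been read, and ACCACA, the reverse complement of TGTGGT, a RUNX-type core.
Il4ra: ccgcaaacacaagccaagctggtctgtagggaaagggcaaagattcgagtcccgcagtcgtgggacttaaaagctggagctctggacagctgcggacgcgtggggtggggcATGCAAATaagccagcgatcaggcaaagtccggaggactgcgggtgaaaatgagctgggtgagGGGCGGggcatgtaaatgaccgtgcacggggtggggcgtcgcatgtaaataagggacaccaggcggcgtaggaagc
Il21r: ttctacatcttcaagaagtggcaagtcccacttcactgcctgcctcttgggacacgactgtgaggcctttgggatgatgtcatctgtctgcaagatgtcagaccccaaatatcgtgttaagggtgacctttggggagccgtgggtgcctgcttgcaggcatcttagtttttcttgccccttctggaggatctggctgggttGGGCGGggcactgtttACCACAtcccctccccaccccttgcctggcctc

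The motif GGGCGG was the only one of the 5 searched that both windows held, at base 175 of Il4ra and base 202 of Il21r, counted from the first base shown. Either strand counted as a match, and 32.7% of 32851 promoter windows of this length hold it. Octamer ATGCAAAT, at base 112 of Il4ra, is in 1.60% of windows, and TGTGGT, at base 218 of Il21r on the other strand, in 14%. Of the 10 receptors, 8 had a promoter in the table, and Il2rb and Il10ra had none. The last 2 motifs were TTCNNNGAA and the same letters with 1 more N, spaced palindromes that STAT proteins are known to bind. TTCNNNGAA, present in 7.02% of all windows, occurred before Il7r and 1 of the 3 listed starts of Il18r1. The longer form, present in 5.85%, occurred before the other 2 starts of Il18r1, whose windows overlap and share this 1 match. Neither form was in the windows of Il4ra and Il21r. A match is a description of letters and not a binding site.

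The other genes are Il2ra (chr2:11642807-11693193, plus strand), Il2rb (chr15:78479256-78495271, minus), Il2rg (chrX:101264378-101268255, minus), Il7r (chr15:9505788-9530176, minus), Il6ra (chr3:89864059-89913196, minus), Il6st (chr13:112464070-112510086, plus), Il10ra (chr9:45253837-45269149, minus) and Il18r1 (chr1:40465552-40500854, plus). Antisense gene models overlap Il4ra and Il6ra: Gm44876 held 2 and 1 UMIs in all and Gm42809 held 71 and 68, against 2319 and 1242 for Il4ra and 951 and 543 for Il6ra.

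Each receptor had its own distribution over the cell classes, and for all 10 both libraries gave the same leading class. The leading class stood apart from the next in both libraries for Il2rb, Il7r, Il21r, Il6ra and Il18r1, while for Il2ra, Il2rg, Il4ra, Il6st and Il10ra its interval overlapped that of the next. Levels are given as UMIs per 1000000 UMIs of the class (CPM), with exact Poisson intervals. Il2rg, the common gamma chain, was spread over B-like, T-like and NK-like cells. Its level was 221 CPM (215 to 228) in wild-type and 203 CPM (195 to 211) in knock-in B-like cells, 239 (227 to 251) and 240 (226 to 254) in T-like cells, and 270.4 (234 to 311) and 242 (190.1 to 304) in NK-like cells. Monocyte-like cells held 80.2 and 75.9 CPM and dendritic-like cells 85.8 and 76.7, below B-like, T-like and NK-like cells in both libraries.

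Il2rb, the signalling chain for IL-2 and IL-15, was led by NK-like cells, at 1170 CPM (1093 to 1250) in wild type and 841 (741 to 950) in knock-in. T-like cells followed at 160.4 CPM (151 to 170) and 160.0 (149 to 172). B-like cells held 2.28 and 3.98 CPM from 43 and 53 UMIs, and no UMI was found in dendritic-like cells. After every cell was thinned to 1000 UMIs, 67.6% and 59.0% of NK-like cells had a UMI of Il2rb, against 12.1% and 13.2% of T-like and 0.127% and 0.209% of B-like cells. Unthinned shares were 91.1% and 81.5%, 29.1% and 28.5%, and 0.521% and 0.554%. The step from NK-like to T-like cells was 7.29-fold in wild type and 5.25-fold in knock-in, with no overlap of intervals.

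Il18r1, the IL-18-binding chain, followed the same order. NK-like cells held 154 CPM (127 to 185) and 105 (71.6 to 148), T-like cells 34.8 (30.4 to 39.7) and 38.3 (33.0 to 44.2), and B-like cells 1.64 and 0.902, from 31 and 12 UMIs. Over 24 points, 12 cell classes in each of 2 libraries, the log2(CPM + 1) levels of Il2rb and Il18r1 had a Pearson r of 0.90, the highest among the 10 receptors; the points of a library share its depth.

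Il7r, the IL-7-binding chain, was led by T-like cells at 429.7 CPM (414 to 446) and 455 (436 to 474). It was followed by dendritic-like cells at 147 in both libraries, from 65 and 46 UMIs, with intervals apart from those of T-like cells. Within dendritic-like cells, those gated on plasmacytoid markers held 58 of the 65 wild-type and 44 of the 46 knock-in UMIs, at 389 CPM (296 to 503) and 311 (226 to 418). The wild-type interval of these plasmacytoid-gated cells overlapped that of T-like cells, and the knock-in interval lay below it. Cells gated on conventional dendritic markers held 23.8 and 11.7 CPM, from 7 and 2 UMIs. In B-like cells Il7r was at 9.05 and 9.24 CPM. The thinned share of cells with a UMI was 32.3% and 34.3% in T-like and 1.10% and 0.799% in B-like cells, whose unthinned shares were 2.27% and 1.83%.

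Il4ra, which gives the IL-4 receptor its specificity, was highest in T-like cells, at 129 CPM (120.4 to 138) in wild type and 87.1 (79.0 to 95.8) in knock-in. NK-like cells were next at 96.0 (75.0 to 121) and 75.3 (47.7 to 113), an interval that overlaps that of T-like cells in both libraries. B-like cells held 59.5 CPM (56 to 63.0) and 45.2 (41.7 to 49.0). Wild-type T-like and B-like intervals stood apart, as did those of the knock-in library.

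Il21r, the IL-21-binding chain, was also led by T-like cells, at 172 CPM (162 to 182) and 138 (127 to 148), followed by B-like cells at 124 (119 to 129) and 93.7 (88.5 to 99.0). That step was 1.39-fold and 1.47-fold and lay outside the intervals. NK-like cells, at 94.7 and 85.1 CPM, overlapped B-like cells in both libraries, while monocyte-like cells held 24.8 and 19.98.

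Il2ra, known for regulatory and activated T cells, was sparse. T-like cells held 67 and 37 UMIs, or 10.3 CPM (8 to 13.1) and 7.58 (5.34 to 10.5). NK-like cells were at 10.8 and 9.82 CPM from 8 and 3 UMIs, which overlaps T-like cells, and B-like cells at 2.28 and 1.95. No UMI was found in monocyte-like or dendritic-like cells of either library. Among wild-type T-like cells, 3 of the 21 with a UMI of Foxp3, the regulatory T cell factor, also had Il2ra (14.3%), against 2.19% of those without; in the knock-in library it was 3 of 24 (12.5%) against 1.64%.

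Il6ra and Il6st had different distributions. Il6ra, the IL-6-binding chain, was highest in monocyte-like cells, at 175 CPM (145 to 209) in wild type and 97.9 (72.4 to 129) in knock-in. Dendritic-like cells followed in wild type at 85.8 CPM, apart from both neighbours, and overlapped T-like cells in knock-in at 38.4. T-like cells held 48.1 and 44.5 CPM, B-like cells 18.9 and 12.6, and NK-like cells had no UMI among 291 and 146 cells. A count of 0 there allows up to 4.99 CPM in wild type and 12.1 in knock-in. Il6st, the gp130 signalling chain shared by the IL-6 family, had its highest value in T-like cells, at 73.4 CPM (66.9 to 80.3) and 63.9 (57.0 to 71.4). The next class overlapped it in each library, dendritic-like cells at 49.7 (31.1 to 75.2) in wild type and monocyte-like cells at 43.9 (27.5 to 66.5) in knock-in. It stood at 47.3 and 36.2 CPM in B-like, 42.3 and 43.9 in monocyte-like and 12.2 and 9.82 in NK-like cells.

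Il10ra, the IL-10-binding chain, had its highest values in monocyte-like cells at 141 CPM (115 to 173) and 114 (86.2 to 148), followed by dendritic-like cells at 108 (79.9 to 144) and 57.5 (34.1 to 90.9), with overlap in both libraries. NK-like cells held 35.2 and 36.0 CPM, B-like cells 32.5 and 23.6, and T-like cells 7.24 and 6.35. Lymphoid classes thus split, with T-like cells below B-like cells outside the intervals in both libraries.

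**Figure D1:**
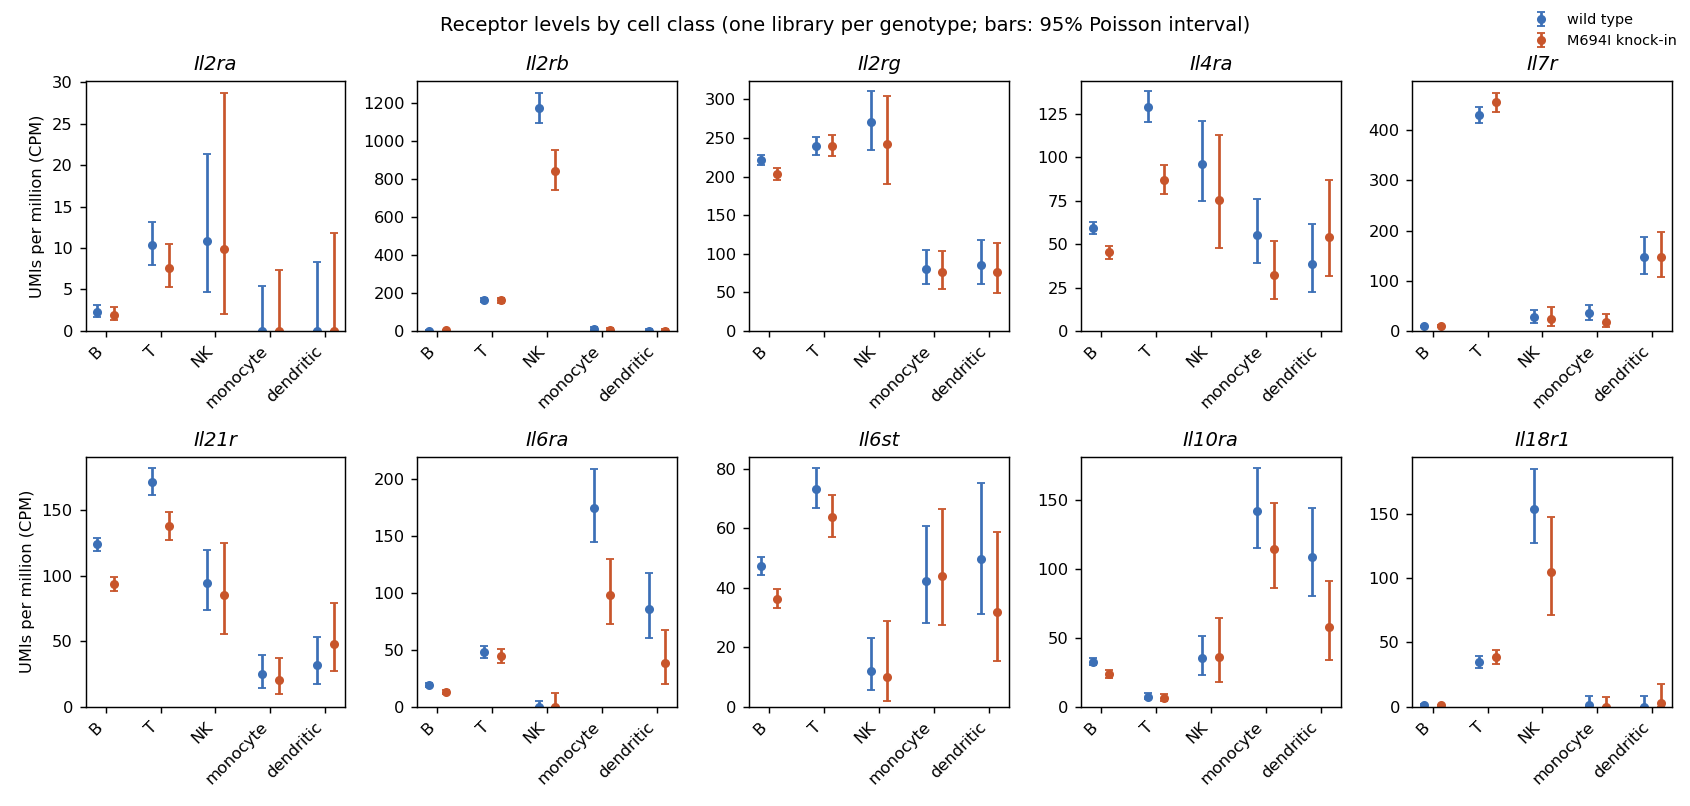
Level of each receptor (CPM) in 5 cell classes, wild-type library in blue and knock-in library in orange, with exact 95% Poisson intervals and a separate linear axis from 0 in each panel. Il2rb and Il18r1 peak in NK-like cells, Il7r, Il4ra, Il21r and Il6st in T-like cells, and Il6ra and Il10ra in monocyte-like cells of both libraries.

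Between the libraries, most receptors that B-like cells hold in number were at lower levels in the knock-in, while in T-like cells Il4ra and Il21r were. A gene was called lower or higher where its log2 ratio of knock-in over wild type was at least 0.32 in size (1.25-fold), its mean level at least 10 CPM and its summed UMIs at least 20. In B-like cells 6 of the 10 receptors passed that filter on low counts: 5 were lower and 0 higher, against 18.1% of the 6879 genes tested being lower and 14.4% higher. The receptors' median log2 ratio was -0.40, that of all genes tested -0.04. Il2ra, Il2rb, Il7r and Il18r1 did not pass the filter there.

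The 5 were from different receptor families. Il4ra was at 59.5 CPM in wild type and 45.2 in knock-in, a log2 ratio of -0.39 (-0.54 to -0.25, exact conditional binomial interval). Il21r was at 124 and 93.7 CPM, a ratio of -0.40 (-0.50 to -0.30). Both gamma-chain partners were therefore lower by like amounts, with intervals clear of 0. Il6ra had the largest difference, 18.9 against 12.6 CPM or -0.58 (-0.86 to -0.31), and its partner Il6st went from 47.3 to 36.2 CPM, -0.39 (-0.55 to -0.22). Il10ra was at 32.5 and 23.6 CPM, -0.46 (-0.66 to -0.26). The common gamma chain Il2rg moved least, from 221 to 203 CPM, -0.13 (-0.20 to -0.06), inside the limit for a call. Among all genes tested in B-like cells, 2.97% had a lower ratio than Il6ra and 12.8% a lower one than Il6st, so many other genes differed by as much. With each cell weighted equally, in place of summed UMIs, Il4ra (-0.29) and Il21r (-0.30) came inside the limit and 3 receptors were called lower. With each cell thinned to 1000 UMIs, Il6st was at -0.19.

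In T-like cells 8 receptors passed the filter, 2 were lower and 0 higher, against 13.9% of 6764 genes lower and 17.7% higher. Their median was -0.06, beside 0.02 for all genes tested. Il4ra was again lower, 129 against 87.1 CPM or -0.57 (-0.74 to -0.40), and 3.27% of genes had a lower ratio. Il21r, at 172 and 138 CPM, had a ratio of -0.32 (-0.46 to -0.18), at the edge of the limit for a call; with cells under 5% mitochondrial UMIs or with Leiden clusters in place of the gate it was -0.30 and -0.29, and Il4ra was the 1 receptor called. The remaining 6 stayed inside it: Il2rb 0.00 (-0.14 to 0.13), Il2rg 0.00 (-0.11 to 0.12), Il7r 0.08 (0.00 to 0.16), Il6ra -0.11 (-0.37 to 0.14), Il6st -0.20 (-0.41 to 0.01) and Il18r1 0.14 (-0.15 to 0.42). Scaling by TMM factors, which assume that most genes do not differ, turned the split of all T-like genes to 17.4% lower and 13.8% higher and left both receptor calls in place.

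Over all kept cells together, 9 receptors passed, 7 were lower and 0 higher, against 22.4% of 7077 genes lower and 12.5% higher. Here the mix of cells enters, since knock-in NK-like cells were 1.74% of cells against 3.07%. The split of all genes became 16.7% lower and 16.4% higher with TMM factors and 17.0% and 16.1% when immunoglobulin genes were left out of the total. Under either setting Il18r1, at -0.27 in each, was no longer called lower.

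**Figure D2:**
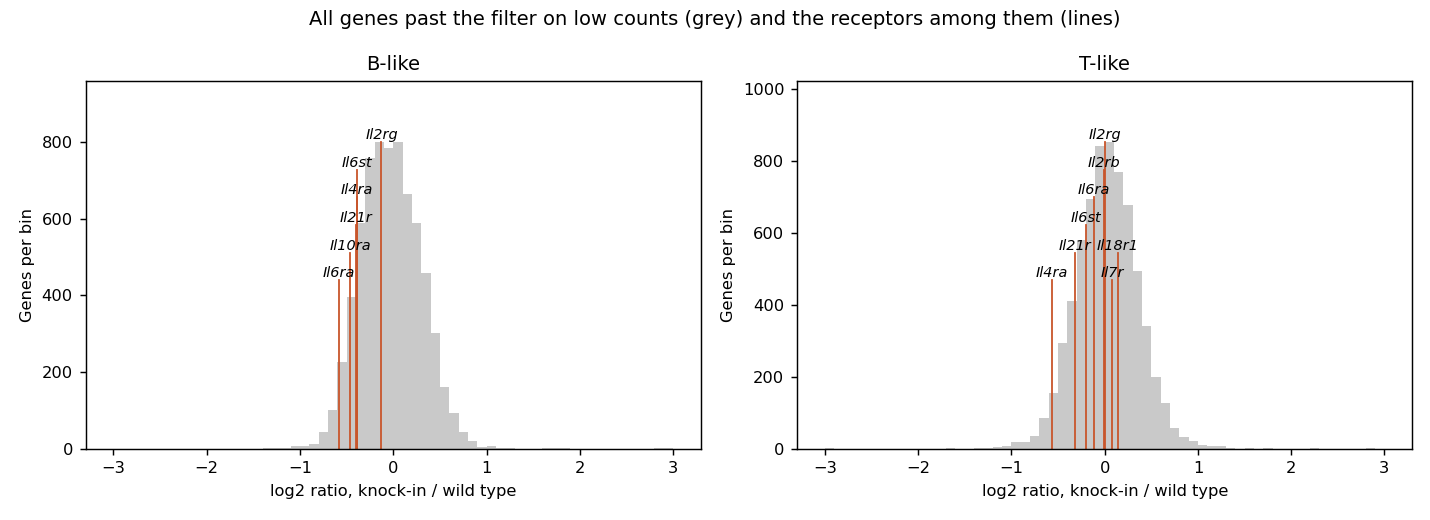
Number of genes per bin of the log2 ratio of knock-in over wild type, for genes past the filter on low counts in B-like and T-like cells, with the receptors among them as orange lines of arbitrary height. In B-like cells 5 receptors lie at -0.39 or below and Il2rg at -0.13, while in T-like cells Il4ra stands at -0.57 and Il2rb and Il2rg at 0.00.

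Other readings moved along with the lower receptor levels. Malat1, a nuclear non-coding RNA, took 3.02% of UMIs in wild-type and 1.92% in knock-in B-like cells, 2.16% and 1.48% in T-like cells and 1.28% and 0.822% in monocyte-like cells. Mitochondrial genes took 5.20% and 4.29% in B-like cells, and the 82 ribosomal protein genes 30.7% and 30.2%. The median B-like cell held 2360 UMIs in wild type and 1840 in knock-in, and the median T-like cell 3052 and 2479. Markers of other cells in B-like cells were low: the 8 T markers, all detected in both libraries, summed to 24.5 and 23.5 CPM, the NK markers to 7.78 (8 of 8) and 5.34 (7 of 8, with Klra8 at 0), while the plasma cell list summed to 439 and 724 CPM (7 of 8 in both, with Tnfrsf17 at 0) and 8 cell cycle genes to 150.0 and 296. In T-like cells the 8 B markers summed to 44.7 and 30.5 CPM and the NK markers to 81.5 (8 of 8) and 54.1 (7 of 8, with Klra8 at 0). The monocyte list summed to 181 (7 of 10) and 308 (5 of 10, with Fcgr4, Ace and Treml4 at 0 in both). In CD8 T-like cells with memory markers, gated below, that list summed to 621 and 608 CPM, against 162 and 210 in the other CD8 cells. CD4 T-like cells held 29.8 and 55.3 CPM of it. Of the T cell sub-type lists, all detected in both libraries, the memory and effector list summed to 1999 and 4172 CPM in T-like cells, the regulatory list to 593 and 862 and the naive list to 2285 and 2057. The part of Malat1, the mitochondrial share and these marker lists in the receptor and pathway ratios was not tested; depth was looked at directly, as follows.

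Cells were split by their own UMI total into 4 ranges, a comparison added after the data had been seen. Il4ra was lower in the knock-in library in all 4 ranges of B-like cells, with ratios from -0.67 to -0.43 and every interval below 0. It was lower in all 4 ranges of T-like cells too, from -0.67 to -0.51, with 3 intervals below 0. In B-like cells of at least 1500 and under 2500 UMIs, for example, Il4ra was at 78.3 and 56 CPM, -0.48 (-0.71 to -0.26), from 520 and 242 UMIs. Il21r behaved alike: it was lower in 4 of 4 ranges in B-like cells (-0.78 to -0.35) and in 4 of 4 in T-like cells (-0.51 to -0.35), with 4 and 3 intervals below 0. Il10ra was lower in all 4 ranges of B-like cells (-0.90 to -0.47, 4 intervals below 0) and Il6ra in all 4 (-1.16 to -0.27, 3 below 0). Il6st was lower in 3 of 4 ranges (-0.68 to 0.01). In B-like cells the ratios over all cells, -0.39 for Il4ra and -0.46 for Il10ra, were smaller in size than in any range. So was that of Il21r in T-like cells, at -0.32. For Il2rg the B-like ratio ran from 0.22 in cells under 1500 UMIs to -0.49 in cells of 4000 or more, so its value over all B-like cells averages unlike readings. Il2rb, at 0.00 over all T-like cells, ran from -0.99 to 0.36 over their 4 ranges. The median ratio of all genes in these ranges lay between -0.18 and 0.04.

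**Figure D3:**
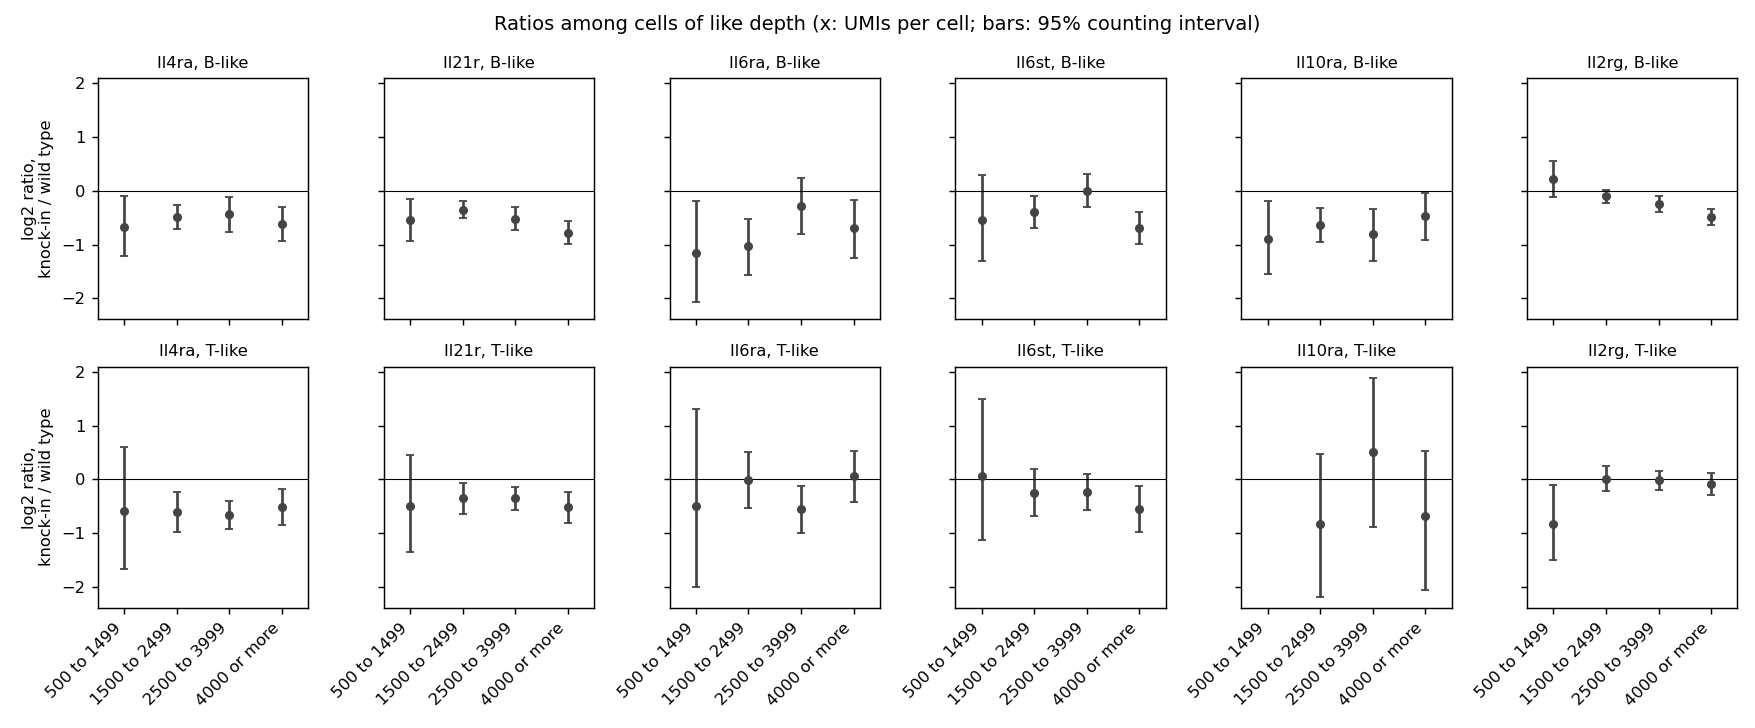
Log2 ratio of knock-in over wild type for 6 receptors among cells of like UMI total (x axis, UMIs per cell) in B-like cells (top) and T-like cells (bottom), with 95% counting intervals; receptors under 20 UMIs in a range are left out. Il4ra and Il21r lie below 0 in all 8 readings each, and Il2rg goes from 0.22 to -0.49 along the ranges in B-like cells.

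Chromosomal neighbours of the Il4ra and Il21r pair did not share one direction. Within 500000 bases on either side, 4 other genes passed the filter. In B-like cells Xpo6 was lower past the limit, at -0.42 (-0.57 to -0.27), and Nsmce1 higher past it, at 0.55 (0.41 to 0.68). Gtf3c1 (-0.25, -0.51 to 0.02) and D430042O09Rik (-0.21, -0.44 to 0.01) lay below 0 there. The median of the 4 was -0.23 in B-like cells, beside -0.04 for all genes tested. In T-like cells they ran from -0.24 (Gtf3c1) to 0.18 (D430042O09Rik), none past the limit, with a median of -0.10 beside 0.02. These 4 were listed by position and not by their values.

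Sub-classes of B-like cells differed in receptor level within each library. Marginal zone B cells, the blood-facing B cells of the spleen, were gated on at least 2 of 8 markers such as Dtx1 and S1pr3, and follicular B cells on 5 markers such as Fcer2a and Cxcr5. In wild type Il4ra was at 28.0 CPM in marginal zone and 62.9 in follicular cells, a log2 ratio of -1.17 (-1.74 to -0.64); in knock-in it was 27.3 and 48.3, -0.82 (-1.58 to -0.15). Il21r was lower in marginal zone cells by -0.88 (-1.22 to -0.55) and -1.02 (-1.60 to -0.50) on the log2 scale, and Il2rg by -0.99 (-1.25 to -0.73) and -0.64 (-0.96 to -0.34). All 3 gamma-chain genes that B-like cells hold in number were thus lower in marginal zone cells in both libraries. Marginal zone cells were deeper: the median cell held 4367 UMIs in wild type and 3807.5 in knock-in, against 2455 and 1937.5 in follicular cells. From wild-type B-like cells under 1500 UMIs to those of 4000 or more, Il4ra went from 105 to 44.6 CPM. Il21r went from 198 to 99.99 CPM and Il2rg from 257 to 183. The part of depth in these sub-class ratios was not tested. Il6st leaned the other way, at 64.2 against 50.04 CPM and 47.5 against 33.3, with intervals that include 0 (0.36, -0.03 to 0.73, and 0.51, -0.07 to 1.05). Il10ra was lower in wild-type marginal zone cells, 17.2 against 38.7 CPM or -1.17 (-1.92 to -0.50), and its knock-in interval included 0 (-0.53, -1.52 to 0.32).

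Transitional B cells, recent arrivals from bone marrow gated on markers such as Vpreb3 and Cd93, stood out for Il7r, the receptor of B cell precursors. It was at 34.1 CPM in transitional and 7.20 in follicular cells of wild type, a log2 ratio of 2.24 (1.58 to 2.88), and at 29.99 and 6.39 in knock-in, 2.23 (1.35 to 3.07). Il2rg was lower in transitional than in follicular cells in both libraries, -0.46 (-0.70 to -0.24) and -0.63 (-0.95 to -0.32). Activated B cells, gated on genes such as Egr2, Egr3 and Myc, differed from follicular cells in Il10ra, which was lower by -0.65 (-0.99 to -0.32) and -0.58 (-1.12 to -0.06).

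The libraries were also compared within 5 parts of the B-like cells, the 4 named sub-classes and the cells that met none of them. Il4ra was lower in 5 of 5 (-0.44 to -0.04, 3 intervals below 0), Il21r in 5 of 5 (-0.70 to -0.14, 3 below 0) and Il6st in 5 of 5 (-0.59 to -0.06, 2 below 0). Il10ra was lower in 4 of 5 (-1.64 to 0.01, 3 below 0), with marginal zone cells the exception, and Il6ra in the 4 with at least 20 UMIs (-0.75 to -0.29, 2 below 0). Cells in no sub-class had the largest Il4ra difference and the smallest ones of Il21r and Il6st. In follicular cells, the largest named sub-class with 2555 and 1982 cells, Il21r was at 133 and 90.7 CPM (-0.55, -0.71 to -0.39), Il6st at 50.04 and 33.3 (-0.59, -0.85 to -0.32) and Il10ra at 38.7 and 25.0 (-0.63, -0.94 to -0.33). Marginal zone cells, the smallest sub-class, held Il4ra at 28.0 and 27.3 CPM, -0.04 (-0.94 to 0.83). Il2rb ran against the rest in activated B cells, at 1.5 CPM in wild type and 8.18 in knock-in from 6 and 20 UMIs, below the filter on low counts.

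T-like cells were divided by co-receptor. CD4 T-like cells (a UMI of Cd4 and none of Cd8a or Cd8b1) numbered 244 and 170, and CD8 T-like cells 488 and 614, or 5.15% and 7.33% of all kept cells. The larger part of the 1845 and 1728 T-like cells was in neither class, so these counts do not give the proportion of CD4 to CD8 cells. Il7r was higher in CD8 than in CD4 cells in both libraries: 464 against 323 CPM in wild type, 0.52 (0.34 to 0.71), and 511 against 258 in knock-in, 0.99 (0.72 to 1.26). Cells with at least 3 regulatory T cell markers, where Il7r was lower, were 64 of the 244 and 66 of the 170 CD4 cells. Among all T-like cells without Cd8a or Cd8b1, with Cd4 detected or not, those with fewer such markers held Il7r at 464.5 and 453.8 CPM. The others held 195.8 and 257.8 CPM. Il2rb was higher in CD8 cells of wild type, 186 against 92.4 CPM or 1.01 (0.68 to 1.36), and not separated in knock-in, 144 against 131 or 0.13 (-0.26 to 0.55).

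CD4 T-like cells with at least 3 of 7 regulatory T cell markers, 64 and 66 cells, showed a receptor pattern that held in both libraries. A UMI of Foxp3 was found in 7 and 5 of them. The 8 cell cycle genes summed to 1690 and 582 CPM in these cells, against 148 and 388 in the other CD4 cells. The median cell of this gate held 3672 and 2649 UMIs, against 2929 and 2010 in the other CD4 cells. The part of the cell cycle genes and of depth in the ratios of this gate, between cells or between libraries, was not tested. Il2rb was higher in them than in the other CD4 cells, 146 against 53.3 CPM in wild type, 1.45 (0.79 to 2.13), and 189 against 76.1 in knock-in, 1.31 (0.51 to 2.17). Il7r was lower, 148 against 452 CPM, -1.61 (-2.04 to -1.20), and 163 against 348, -1.09 (-1.68 to -0.53). Il4ra was lower as well, 48.6 against 147.6 CPM, -1.60 (-2.39 to -0.89), and 25.1 against 80.1, -1.67 (-3.28 to -0.30), the last from 6 and 20 UMIs.

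Il2ra, the classic regulatory T cell receptor gene, rested on 9 and 2 UMIs in these cells. A wider gate, added after the data had been seen, took all T-like cells without Cd8a or Cd8b1 and with 3 regulatory markers, 167 and 206 cells. Il2ra was at 28.9 CPM in them against 7.79 in the other T-like cells without Cd8 in wild type, 1.89 (1.02 to 2.75), and at 25.9 against 7.63 in knock-in, 1.77 (0.65 to 2.88). Il4ra stayed lower in the wider gate, by -1.39 (-1.86 to -0.95) and -1.92 (-2.78 to -1.17). Between libraries, regulatory-gated CD4 cells held Il6st at 99.6 and 37.7 CPM, -1.40 (-2.63 to -0.34), from 41 and 9 UMIs, while in the wider gate its interval included 0 (-0.48, -1.10 to 0.12).

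CD8 T-like cells with at least 2 of 7 memory and effector markers such as Ccl5, Eomes and Cxcr3, 165 and 248 cells, were higher in Il2rb and Il18r1 than the other CD8 cells. Il2rb was at 260.7 against 130.1 CPM in wild type, 1.00 (0.70 to 1.31), and 199.995 against 86.9 in knock-in, 1.2 (0.85 to 1.57). Il18r1 was at 40.6 against 21.4 CPM, 0.92 (0.15 to 1.72), and 46.6 against 18.5, 1.33 (0.56 to 2.16). Il21r was lower in the same cells, by -0.73 (-1.08 to -0.38) and -0.55 (-0.93 to -0.18), and Il7r by -0.30 (-0.49 to -0.10) and -0.22 (-0.39 to -0.05). The median cell with memory markers held 4746 UMIs in wild type and 4110 in knock-in, against 3381 and 2786.5 in the other CD8 cells. The part of depth in these ratios was not tested.

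**Figure D4:**
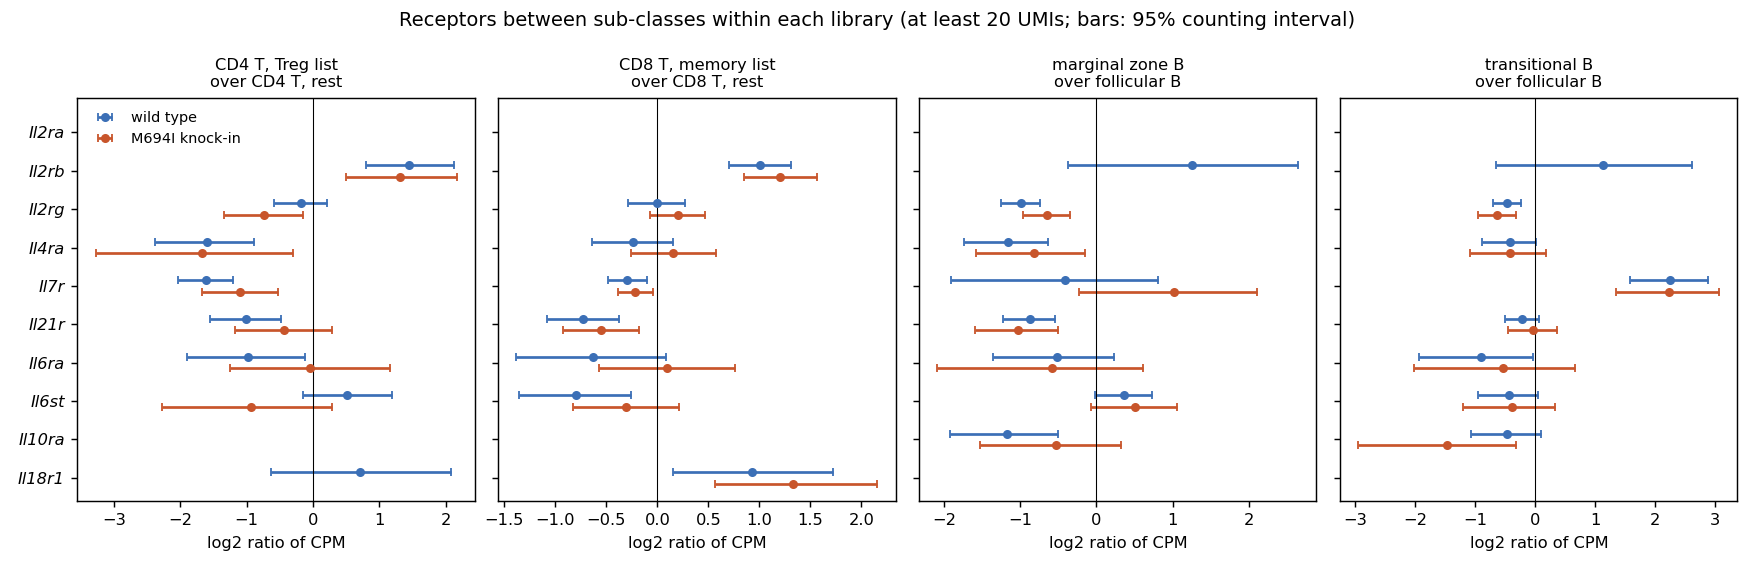
Log2 ratio of receptor level between sub-classes of the same library, wild type in blue and knock-in in orange, with 95% counting intervals; receptors under 20 UMIs or with a 0 are left out and each panel has its own x axis. Il2rb is raised in both the regulatory and the memory gates, and Il7r is raised in transitional B cells at 2.24 and 2.23.

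Within the CD4 and CD8 classes, which leave out the larger part of T-like cells, the genotype comparison showed other values for Il2rb. Its level was 160 CPM in T-like cells of both libraries, yet in CD8 T-like cells it was 186 in wild type and 144 in knock-in, -0.37 (-0.59 to -0.16). With each cell thinned to 1000 UMIs that value was -0.14, inside the limit for a call. It was lower both in cells with the memory markers (261 and 199.995 CPM, -0.38, -0.66 to -0.11) and in the other CD8 cells (130 and 86.9 CPM, -0.58, -0.97 to -0.20). In CD4 T-like cells it was higher in knock-in, 92.4 and 131 CPM or 0.50 (0.02 to 0.98), with intervals that include 0 in the regulatory gate (0.37, -0.22 to 0.95) and outside it (0.51, -0.40 to 1.39). It was 0.21 with Leiden clusters in place of the gate, which ends the call, and 1.35 with thinned cells. In the same CD4 T-like cells the memory and effector list summed to 127 CPM (6 of 7, with Gzmm at 0) and 1218 (7 of 7), and the regulatory list to 1242 (6 of 7, with Gpr83 at 0) and 2283 (7 of 7). The part of these cells in the Il2rb value was not tested. Knock-in T-like cells also held a larger share of CD8 cells, as the counts above give.

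Of the 8 receptors that passed the filter in CD8 T-like cells, 2 were lower and 0 higher, against 18.3% of 6503 genes lower and 19.5% higher. The 2 were Il2rb and Il21r, the latter at 155 and 116 CPM, -0.42 (-0.66 to -0.18). Il4ra, at 112 and 91.9 CPM, had a ratio of -0.29 (-0.57 to -0.01), and Il7r, at 464 and 511, one of 0.14 (0.01 to 0.27). In CD4 T-like cells 8 passed, with 4 lower and 1 higher, against 22% of 6210 genes lower and 29.8% higher. Il4ra was at 106 and 53.2 CPM there, -0.99 (-1.67 to -0.36), from 103 and 26 UMIs, and Il7r at 323 and 258, -0.33 (-0.64 to -0.02). The Il7r call was lost with thinned cells (-0.05), and the regulatory gate, where Il7r is lower, held 64 of 244 and 66 of 170 of these cells. The intervals of the other 2 called lower, Il6st and Il18r1, included 0.

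NK-like cells, where Il2rb is most abundant, held less of it in the knock-in library: 1170 against 841 CPM, -0.48 (-0.68 to -0.27), from 865 and 257 UMIs. As in CD8 T-like cells, the knock-in value was lower, here under each setting that recomputed it (-0.53 to -0.42). Il18r1 was at 154 and 105 CPM, -0.56 (-1.17 to 0.02). Of 7 receptors that passed the filter in NK-like cells 3 were lower and 0 higher, against 32.2% of 5449 genes lower and 20.9% higher, a share of the same order. The third was Il4ra, at 96.0 and 75.3 CPM with an interval that included 0 and a ratio of -0.0030 with Leiden clusters. T markers summed to 423 CPM (7 of 8, with Cd5 at 0) and 491 (6 of 8, with Cd3e and Cd5 at 0) in NK-like cells, and 8 cell cycle genes to 287 (8 of 8) and 118 CPM (2 of 8), whose part in the Il2rb value was not tested.

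**Figure D5:**
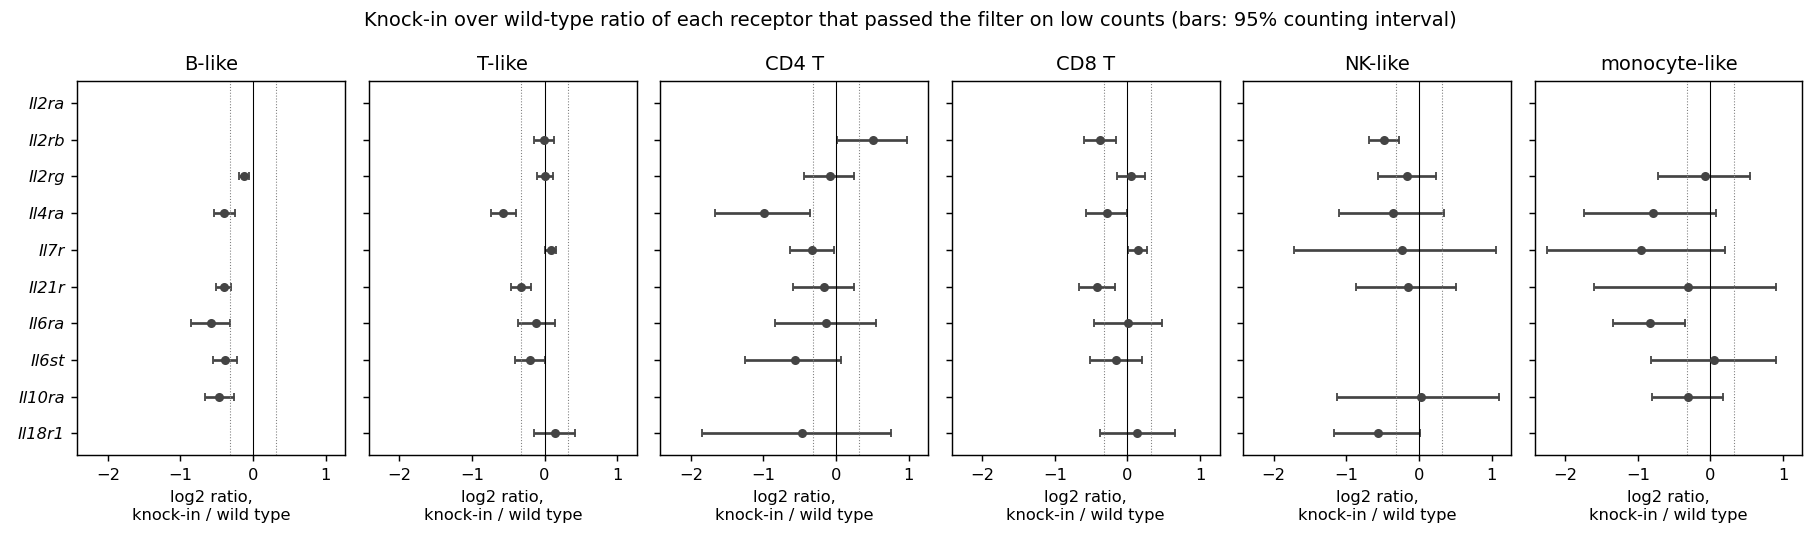
Log2 ratio of knock-in over wild type for each receptor that passed the filter on low counts in 6 cell classes, with 95% counting intervals and dotted lines at the limit for a call (0.32 in size). Il4ra lies below 0 in all 6 classes, with an interval clear of 0 in B-like, T-like, CD4 and CD8 cells, while Il2rb lies below 0 in NK-like and CD8 cells and above it in CD4 cells.

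In monocyte-like cells Il6ra was the 1 receptor whose ratio had an interval clear of 0. The class held 175 CPM in wild type and 97.9 in knock-in, -0.84 (-1.35 to -0.35), from 120 and 49 UMIs. Classical monocyte markers were found in 69.2% and 65.0% of these cells and non-classical markers in 46.2% and 51.0%. In cells with more classical UMIs Il6ra was at 153 and 95.7 CPM, and in those with more non-classical UMIs at 225 and 112. Both values were lower in knock-in, and in each the intervals of the libraries overlapped. Markers of other myeloid cells in this class summed to 125 and 71.9 CPM for neutrophils (6 and 5 of 8), 300.4 and 219.7 for macrophages (6 and 8 of 8) and 193 and 404 for conventional dendritic cells (8 and 9 of 9), and their part was not tested.

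In all, 7 receptors passed the filter in monocyte-like cells, with 3 lower and 0 higher, against 28.6% of 5511 genes lower and 24% higher. The others were Il4ra at 55.4 and 31.96 CPM and Il7r at 35.0 and 18.0 CPM, from 38 and 16 and from 24 and 9 UMIs, and their intervals included 0. Il7r was at -0.96 (-2.25 to 0.19) and, with Leiden clusters, at -0.10. Il10ra was at 141 and 114 CPM, -0.31 (-0.81 to 0.17). Dendritic-like cells, too few for the main comparison, held Il6ra at 85.8 and 38.4 CPM, -1.16 (-2.23 to -0.19), and Il10ra at 108 and 57.5, -0.91 (-1.78 to -0.11). The make-up of that class differed: cells with conventional markers numbered 42 and 27 and those with plasmacytoid markers 28 and 35. Neutrophil markers in it summed to 617 (7 of 8) and 9.59 CPM (1 of 8, with S100a8 and S100a9 among those at 0) and B markers to 833 (6 of 8) and 2039 (5 of 8), and their part was not tested. Neutrophil-like cells, 114 and 48 in number, held 22 and 3 UMIs of Il6ra. Among 27 wild-type plasma cell-like cells, 94.3% of the 35 Il21r UMIs came from 1 cell, so the level there (86.1 against 11.5 CPM in 128 knock-in cells) rests on that cell.

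Receptor chains were found together in few single cells, as sparse counts allow. After thinning to 1000 UMIs, Il7r and Il2rg were both found in 6.85% (5.74 to 8.10, Clopper-Pearson) of wild-type and 7.82% (6.59 to 9.21) of knock-in T-like cells, against 0.206% and 0.152% of B-like cells. Il2rb and Il2rg were both found in 16.4% (12.3 to 21.2) and 13.7% (8.43 to 20.5) of NK-like cells. For Il4ra with Il2rg the share was 2.99% (2.26 to 3.88) in wild-type and 1.66% (1.11 to 2.39) in knock-in T-like cells, and 1.65% (1.35 to 2.00) and 1.16% (0.889 to 1.49) in B-like cells. Among T-like cells with a UMI of Il7r, 21.2% and 22.8% also had Il2rg, close to the 20.9% and 21.4% of all T-like cells. The same held for Il4ra, with 23.6% and 22.4%. Il6ra and Il6st were found together in 5 and 8 T-like cells and in 1 and 0 monocyte-like cells. Il2ra and Il2rb were both found in 7 and 1 T-like cells.

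The genes whose levels were most alike to each receptor were read over the same 24 points, among 5072 genes, with no test. For Il2rb they were Sytl3 (Pearson r 0.95), Ms4a4b (0.95) and Nkg7 (0.95), and for Il18r1 Sytl3 (0.95), Nkg7 (0.92) and Atp11b (0.91); Nkg7, a cytotoxic granule protein, is also one of the memory markers of the gate. Il7r was most like Slco3a1 (0.94), Il10ra like Ehd4 (0.95) and Zeb2 (0.93), and Il2rg like Tut4 (0.93) and Tnik (0.92). Il21r was most like N4bp2l2 (0.92), Il4ra like Epb41 (0.90), Il2ra like Mcm6 (0.87), Il6ra like Ifi27l2a (0.85) and Il6st like Rpl28 (0.80).

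The rest of the pathway was read from lists, each given by its counts beside the shares of all genes tested. Of 19 kinases, STATs and adaptors that act below these receptors, 16 passed the filter in B-like cells, with 7 lower and 1 higher (18.1% and 14.4% of all genes) and a median log2 ratio of -0.29 beside -0.04 for all genes. Stat6, the STAT of the IL-4 receptor, was at 33.6 and 24.5 CPM, -0.46 (-0.65 to -0.26), and Shc1, an adaptor, at 18.3 and 12.9, -0.50 (-0.78 to -0.23). Lck, a T cell kinase, was the 1 higher, at 12.8 and 18.6 CPM, 0.55 (0.29 to 0.81), while the summed T markers in those cells were at 24.5 and 23.5 CPM.

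T-like cells had 16 of the same 19 past the filter, 4 lower and 2 higher (13.9% and 17.7% of all genes), with a median of -0.02 beside 0.02 for all genes. Stat5a and Stat5b, the STATs of IL-2 and IL-7 signalling, were at 81.1 and 44.7 CPM, -0.86 (-1.09 to -0.63), and at 97.2 and 61.7 CPM, -0.66 (-0.86 to -0.46). Jak3, the kinase bound to the common gamma chain, was higher, from 6.47 to 14.8 CPM, 1.19 (0.62 to 1.77), on 42 and 72 UMIs. Jak3 is 1 of the 2 called higher, and its wild-type level lay below the filter's limit on the mean level. At that wild-type level a gene could pass the filter only by being higher in the knock-in library.

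Of the 10 feedback inhibitors, 7 passed in T-like cells, with 4 higher and 1 lower (17.7% and 13.9% of all genes) and a median of 0.42 beside 0.02. Socs1 and Socs3, which damp JAK and STAT signalling, were at 56.7 and 82.0 CPM, 0.53 (0.32 to 0.74), and at 85.8 and 120.5 CPM, 0.49 (0.32 to 0.66), and the phosphatase gene Ptpn6 at 30.2 and 44.9, 0.57 (0.29 to 0.86). B-like cells had 6 past the filter, 1 higher and 1 lower (14.4% and 18.1% of all genes): Ptpn6 at 113 and 141 CPM, 0.33 (0.24 to 0.42), and Ptpn11 at 36.2 and 28.6, -0.34 (-0.52 to -0.15).

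Among 20 known targets of these cytokines, 12 passed in B-like cells with 2 higher and 4 lower (14.4% and 18.1% of all genes), and 15 in T-like cells with 6 higher and 2 lower (17.7% and 13.9%). The 2 higher in B-like and the 2 lower in T-like cells are about those shares. Bcl6, the germinal centre factor, was at 47.6 and 31.9 CPM in B-like cells, -0.58 (-0.75 to -0.41), Ccnd2, a cyclin, at 136.6 and 95.5, -0.52 (-0.61 to -0.42), and Klf2, a quiescence factor, at 1548 and 2159, 0.48 (0.46 to 0.50). In T-like cells Pim1, a kinase gene induced by STAT5, was at 637 and 418 CPM, -0.61 (-0.68 to -0.53). Tbx21, the T-bet gene, was at 7.86 and 15.98 CPM, 1.02 (0.50 to 1.56), and is also one of the memory markers. Like Jak3, Tbx21 lay below the filter's limit in wild type and passed through its higher knock-in level.

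Other interleukin receptors were mostly too sparse. Of 36, 6 passed in B-like cells, 1 higher and 2 lower against 14.4% and 18.1% of all genes, and 5 in T-like cells, 3 higher and 1 lower against 17.7% and 13.9%. Il17ra, the IL-17 receptor chain, was lower in both, from 55.2 to 29.4 CPM in B-like cells, -0.91 (-1.08 to -0.74), and from 48.9 to 31.8 in T-like cells, -0.62 (-0.91 to -0.34). Il27ra, the IL-27 receptor, was higher in T-like cells, 26.5 and 45.1 CPM, 0.77 (0.47 to 1.06), and Csf2ra, a GM-CSF receptor chain, was higher in B-like cells, 18.6 and 27.9 CPM, 0.59 (0.37 to 0.80). Of 27 interleukin ligands 3 passed in B-like and 2 in T-like cells, with 1 lower (18.1% and 13.9% of all genes) and 0 higher in each: Clcf1 in B-like cells, at 24.3 and 19.2 CPM, and Il16 in T-like cells, at 69.2 and 49.8.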

How the data were processed

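Spleen cells of 1 wild-type and 1 knock-in library were made as 10x 3' libraries (v3.1), per the labels' protocols. The authors deposited unnormalised counts of UMIs for each gene in each cell, written by Cell Ranger 6.1.2, per the file headers. Cell Ranger 7.1.0 and Seurat 5.0.3 stand in the submitters' processing notes, along with mm10. Gene annotation and strand setting of the counting: not given in the sources used here. Of the features, 99.6% matched GENCODE M21 (GRCm38, which is mm10) by Ensembl ID.

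Cells with at least 500 UMIs, 200 genes and under 10% mitochondrial UMIs were kept (48 and 21 barcodes missed the first 2 limits, 668 and 396 the last). Scrublet (scanpy 1.11.5, expected rate 0.08) set its automatic limit so that 157 wild-type and 1 knock-in cell were marked. A common score limit of 0.35 was used instead, which removed 255 (2.62%) and 209 (2.44%) cells. A cell was gated by at least 3 detected markers of 1 lineage list (5 for plasma cells, 4 for plasmacytoid dendritic cells); 189 and 217 cells met more than 1 lineage and 435 and 450 none. T-like sub-classes needed 3 regulatory or 2 memory markers, and B-like sub-classes 2 markers and the highest share of a list. These thresholds were set after marker detection had been seen and without the receptors.

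Counts were summed per library and class and scaled to 1000000. A floor of 3 counts stands for a count of 0. With 1 library a group no p-value was computed. The receptors, marker and pathway lists were chosen with earlier results of these data known. Named genes are all 10 receptors where at least 20 UMIs were summed, the 3 members of each pathway list with the largest ratios among those past the filter in all, B-like and T-like cells (the text gives a part), and for each receptor the 3 genes with the highest Pearson correlation over class and library points at a minimum of 50 CPM in 1 point (the text gives 1 to 3). The 4 neighbours of Il4ra and Il21r were chosen by position after these genes' values had been seen. Alternatives were other limits on cells, doublets kept, a stricter gate, Leiden clusters (leidenalg 0.10.2), thinning, TMM factors (edgeR), a total without immunoglobulin genes, equal weight per cell, the highest cell left out, no filter on low counts and a larger fold; the split by UMI total and a reweighting of B sub-classes were added after the data had been seen. The ratio step was tested on simulated data. Promoters come from RefSeq (GRCm38.p6).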

Additional observations from a re-analysis of the deposited data

How the results depend on the processing

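No paired analysis was possible because each group is 1 library, and for the same reason no replicate could be left out. Over the other settings that recompute levels and ratios, the split by depth aside, 582 of 620 receptor readings stayed within the counting interval of the reported ratio; of 200 levels, 185 stayed and 15 moved. In all, 45 readings had the other sign, 41 of them for 22 ratios that were not called, such as Il7r in all kept cells (0.05, and -0.25 with a mitochondrial limit of 5%), Il21r in NK-like cells (-0.15, and 0.57 with Leiden clusters) and Il10ra in monocyte-like cells (-0.31, and 0.46 with cells thinned to 1000 UMIs). The other 4 were called ratios in CD4 T-like cells: Il6st became 0.46 with thinned cells and 0.016 with each cell weighted equally, and Il18r1 became 0.97 and 0.22. Of 27 called ratios 15 came under the limit in at least 1 setting. In B-like cells Il4ra ranged from -0.49 to -0.29, Il21r from -0.46 to -0.30, Il6st from -0.43 to -0.19, Il6ra from -0.70 to -0.55 and Il10ra from -0.52 to -0.37. In T-like cells Il4ra ranged from -0.79 to -0.54, in NK-like cells Il2rb from -0.53 to -0.42, and in CD8 T-like cells Il2rb from -0.47 to -0.14. The number of receptors called lower in T-like cells was 1 in place of 2 with a mitochondrial limit of 5%, 1 more marker in the gate, Leiden clusters, equal weight per cell, the highest cell of each library left out, or a limit of 0.5 on the log2 ratio. With equal weight per cell it was 3 in place of 5 in B-like cells and 3 in place of 7 in all kept cells. A limit of 0.5 left 1 in B-like and 2 in all kept cells. Il18r1 in all kept cells also came under the limit with TMM factors (-0.27), without immunoglobulin genes (-0.27) and without the highest cells (-0.319). With thinned cells Il21r (-0.29) and Il6st (-0.20) did so in all kept cells and Il6st (-0.19) in B-like cells. Without the filter on low counts 1 receptor was higher in B-like cells, Il2rb. The split by UMI total, added after the data had been seen, was not part of the counts above. In it 32 receptor readings stayed within the counting interval of the reported ratio, 36 moved outside it and 1 called ratio had the other sign. That 1 was Il6st in B-like cells of 2500 to under 4000 UMIs, at 0.0061. The cause of these changes was not tested. Receptors below 20 UMIs in a class, such as Il2ra in most classes, cannot be compared at this depth.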
